A study of Mus musculus with 104 samples.

Results

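Translation initiation and elongation factors are the proteins that bring the initiator tRNA, the mRNA and the ribosome together and then move the ribosome codon by codon along the message. The members described here are the 52 genes, of 17097 genes with a single annotated symbol on the array, whose symbol begins with Eif or Eef and a digit. Each gene was read from the probe set with its highest mean, and 49 members were bright enough to be tested. The 3 that were not are Eef1akmt2, a methyltransferase of elongation factor 1A, Eif2ak2, the double-stranded RNA kinase PKR, and Eif2b5, the catalytic subunit of eIF2B. Eif5b was read only by probe sets that also match Psip1 and is therefore no member.

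The RNA came from muscle stem cells (satellite cells) of C57BL/6J mice, all of which carried the Per1-Venus reporter, a fluorescent protein under the control of a clock gene. Mice were aged (55 to 69 weeks at the start) or adult (19 to 29 weeks), and were kept for 25 weeks either on caloric restriction (CR), in which food was cut by 30%, or on a control diet. The cut was introduced over 3 weeks in steps of 10% a week. The aged CR arm held 26 arrays, aged control 24, adult CR 32 and adult control 22, spread over 6 times of day from T0 to T20 in steps of 4 h, with 4 to 6 arrays per arm and time except adult control T20, which had 1. The design states 4 mice per time and diet. The titles call the arrays biological replicates. The gate used to sort the cells was not stated in what was at hand. For adult control, the age recorded with each of the 22 arrays is 83 to 97 weeks, an age that fits the aged mice and not the title. Groups follow the titles here, so every comparison with adult control rests on them, whereas titles and tags match for aged CR against adult CR.

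Values are RMA intensities on a log2 scale, on which 1 unit is a 2-fold difference, and the value of one probe set cannot be set against that of another as an amount of mRNA. Most muscle stem cell markers were bright, with Gpx3 at 12.4, Pax7 at 9.84 and Myod1 at 10.6 on average. The dimmest, Calcr, averaged 6.01. The mean of the 17 measured markers was 9.67 in aged CR, 9.58 in aged control, 9.71 in adult CR and 9.72 in adult control. Markers of other cells were also present. The mean of 6 fibroadipogenic progenitor markers was 7.64 in aged CR, 7.74 in aged control, 7.67 in adult CR and 7.81 in adult control. Of these, Dpt (10.8), Gsn (10.9) and Dcn (10.5) were bright, whereas Mfap5 (6.11), Lum (4.22) and Pdgfra (3.77) were dimmer. The mean of 5 Schwann cell markers was 8.96 in aged CR, 9.08 in aged control, 8.68 in adult CR and 8.72 in adult control, and the mean of 5 pericyte and smooth muscle markers was 9.45, 9.62, 9.16 and 9.35 in the same order. The mean of 11 myofibre markers was 5.70, 5.82, 5.84 and 5.82. Each result for the members was refitted with the muscle stem cell, Schwann or myofibre score as a covariate, added after seeing the data, and every call of a member that ended is given beside it. The part of the pericyte and fibroadipogenic progenitor markers was not tested. In a bulk sample, fewer cells of a type and less RNA per cell cannot be told apart.

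Initiation starts when eIF2, loaded with GTP and the initiator tRNA, joins eIF1, eIF1A, eIF3 and eIF5 on the small ribosomal subunit, while eIF4E, eIF4G and eIF4A bind and unwind the capped end of the mRNA. It is restrained at 2 known points. The eIF2 kinases phosphorylate eIF2 and so block eIF2B, which recharges it, and the eIF4E-binding proteins hold eIF4E when the mTORC1 kinase is inactive. Phosphorylated eIF2 is known to keep protein synthesis low in quiescent muscle stem cells, which is why these factors are of interest here.

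Promoters are shown because the clock acts on genes through short DNA motifs. RefSeq start windows (GRCm38.p6, 250 bases before to 50 after an annotated start) were at hand for 41 members. The E-box CACGTG, which reads the same on both strands and is bound by the clock factors CLOCK and BMAL1 as well as by MYC, lay in a window of 10 of these 41 genes (24.4%), against 8.09% of the 27025 genes with a window. The 10 genes were Eef1aknmt, Eef2, Eef2k, Eif1b, Eif3f, Eif3k, Eif4a1, Eif4e, Eif4h and Eif5a. The D-box TTANGTAA, searched on both strands, lay in 1 of the 53 member windows (1.89%), that of Eif2s2, against 2.32% of all windows. The ROR element core TAGGTCA lay in 0 member windows, against 2.61% of all windows, and the cyclic AMP element TGACGTCA in 1 (Eef2), against 1.79%. The stretches that follow end at the base before the annotated start, and capitals mark the motif. They show Eif4e and Eif1b, the E-box genes with a rhythm in one arm, and Eif3f and Eef2, E-box genes with a rhythm in no arm. The last is Eif2s2, whose level was called lower in aged CR than in adult CR, with no call for age within control.
Eif4e (chr3:138527028-138527267, plus strand, E-boxes first base 228 and 64 bases before the start): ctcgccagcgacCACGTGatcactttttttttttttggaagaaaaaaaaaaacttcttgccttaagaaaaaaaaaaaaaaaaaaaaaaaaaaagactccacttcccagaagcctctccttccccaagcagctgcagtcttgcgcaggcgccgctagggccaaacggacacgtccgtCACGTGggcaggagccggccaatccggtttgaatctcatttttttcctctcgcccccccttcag
Eif1b (chr9:120492506-120492605, plus strand, E-box first base 24 bases before the start): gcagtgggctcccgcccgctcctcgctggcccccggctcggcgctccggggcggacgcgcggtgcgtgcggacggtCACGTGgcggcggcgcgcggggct
Eif3f (chr7:108934315-108934414, plus strand, E-box first base 68 bases before the start): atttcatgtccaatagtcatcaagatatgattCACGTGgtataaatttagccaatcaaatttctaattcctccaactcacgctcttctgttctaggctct
Eef2 (chr10:81176531-81176630, plus strand, E-box first base 43 bases before the start): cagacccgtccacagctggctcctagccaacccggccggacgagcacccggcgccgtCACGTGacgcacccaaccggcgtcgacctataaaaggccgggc
Eif2s2 (chr2:154892907-154893106, minus strand, D-box first base 181 bases before the start): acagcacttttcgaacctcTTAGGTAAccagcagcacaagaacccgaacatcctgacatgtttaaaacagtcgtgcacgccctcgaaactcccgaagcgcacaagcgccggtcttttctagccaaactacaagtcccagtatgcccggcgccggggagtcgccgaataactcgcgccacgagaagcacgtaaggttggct
Of the 10 E-box genes, 2 were called rhythmic in at least one arm, as were 12 of the 28 tested members whose windows held no E-box. A match is only a match of letters.

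The first question of the study is which genes follow the time of day in each arm. A rhythm was called by limma's moderated F test of a 24 h cosine and sine, with Benjamini-Hochberg adjustment over 11853 genes at 5%. In aged CR, 3 of 49 members (6.12%) were rhythmic, against 16.5% of all genes tested. In aged control, 5 members (10.2%) were rhythmic, against 10.8%. In adult CR, 11 members (22.4%) were rhythmic, against 22.4% of all genes, and in adult control 5 members (10.2%), against 10.6%. Outside aged CR, the share of rhythmic members was thus close to that of all genes. The amplitude, the distance on the log2 scale from the day mean to the peak of the fitted curve, had a median over members of 0.098 in aged CR, 0.12 in aged control, 0.087 in adult CR and 0.11 in adult control. Over all genes the medians were 0.14, 0.14, 0.13 and 0.14 in the same order. In all, 18 members had a rhythm in some arm, 6 of them in 2 arms and none in 3 or 4, and 31 had none.

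**Figure D1:**
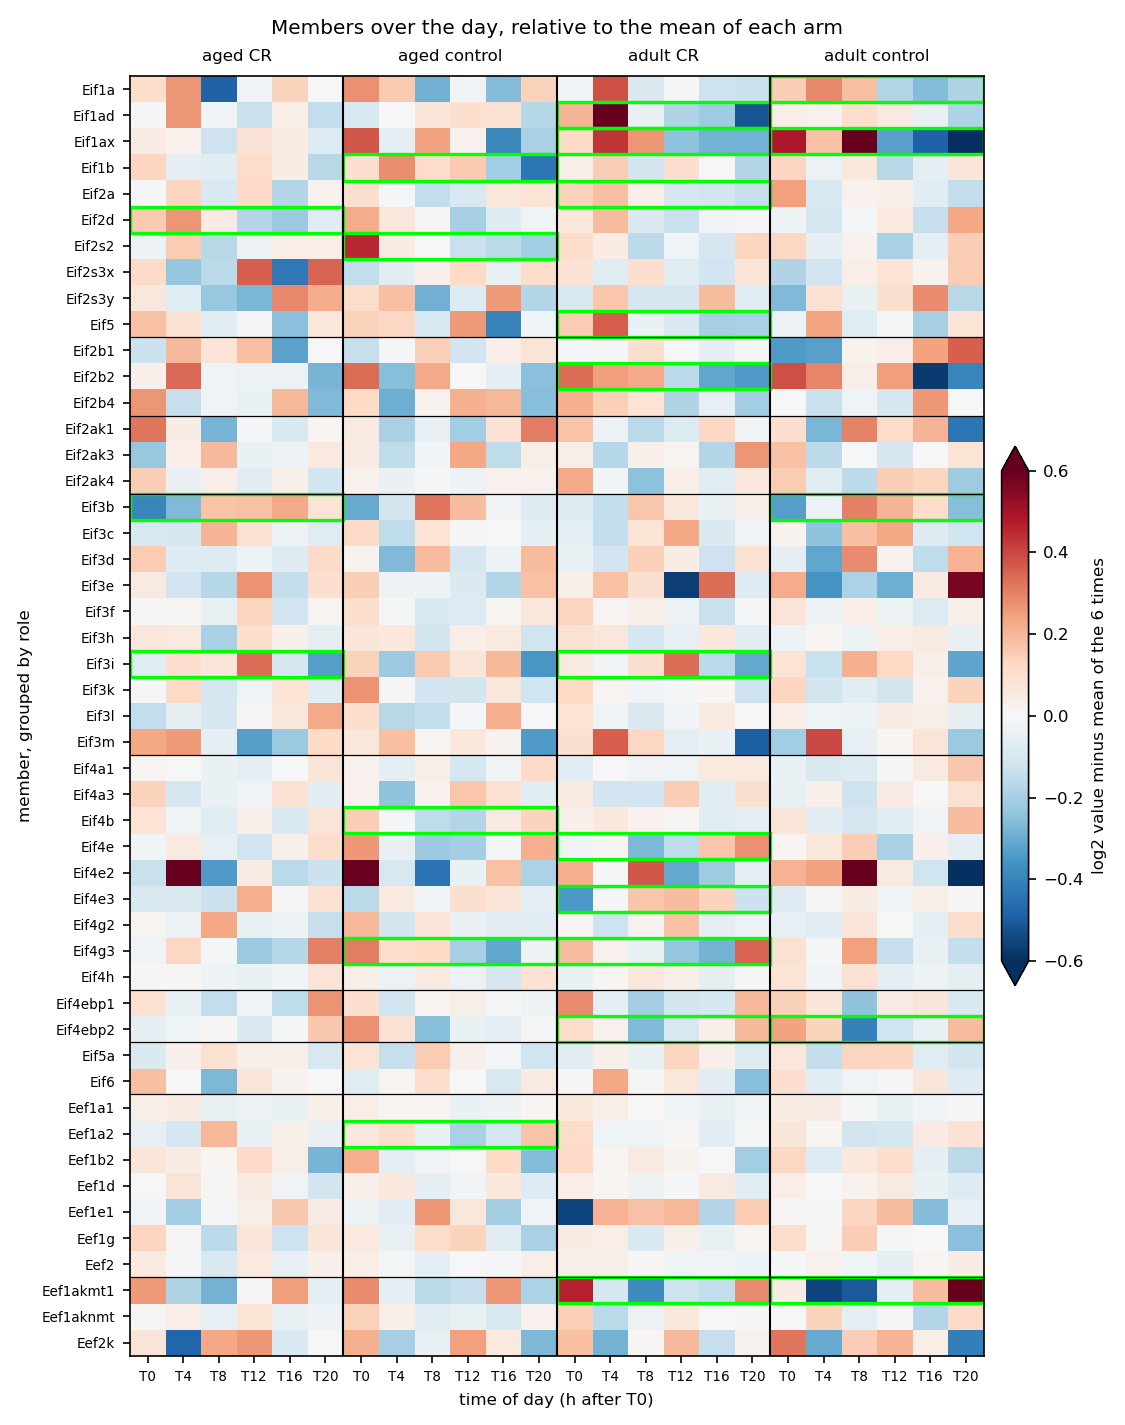
Each row is a tested member, grouped by role, and each column an arm and time of day. Colour is the mean log2 value at that time minus the mean of the 6 times of that arm, and green frames mark the 24 rhythms called. Adult CR holds 11 frames and aged CR 3, and the elongation factors Eef1a1 and Eef2 stay pale in all arms. Adult control T20 is a single array.

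The fitted peak times of the called rhythms are given here by step of initiation. All 9 calls among eIF1, eIF2 and eIF5 factors, made in 8 genes, peaked between 2.12 and 6.37 h after T0, as did the one call in eIF2B at 4.24 h. The 4 calls among eIF3 subunits were made in 2 genes, Eif3b and Eif3i, and peaked between 8.97 and 13.5 h. The cap-binding side was split. Eif4e, Eif4b, Eif4g3 in adult CR and the eIF4E inhibitor Eif4ebp2 peaked between 20.02 and 23.57 h, whereas Eif4g3 in aged control peaked at 2.51 h and Eif4e3 at 11.3 h. Of all genes called rhythmic, 15.9% in aged CR, 12.9% in aged control, 22.1% in adult CR and 17.6% in adult control peaked between 2 and 7 h. Between 8 and 14 h the shares were 26.7%, 26.8%, 24.6% and 29.2% in the same order, and between 18 and 24 h they were 33.1%, 35.7%, 26.9% and 24.6%. Of all 10 tested eIF1, eIF2 and eIF5 members, called or not, 3, 4, 6 and 3 peaked between 2 and 7 h. Of all genes tested, 20.5%, 18%, 22.3% and 18.5% did so in the same order. Of the 10 eIF3 subunits, called or not, 4, 3, 4 and 4 peaked between 8 and 14 h, against 26.1%, 22.8%, 22.2% and 23.7% of all genes tested. The windows were chosen after the peak times were seen, and the order of the steps is a description without a test.

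**Figure D2:**
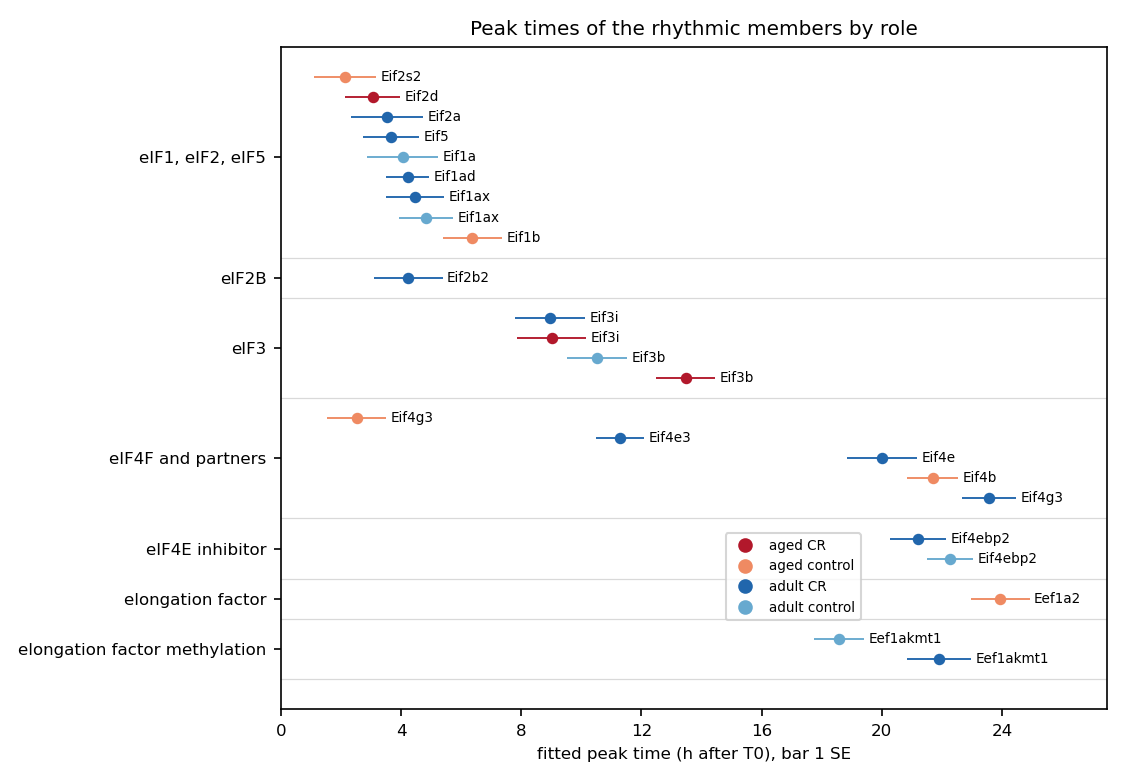
Points are the fitted peak times (h after T0) of the 24 called rhythms, bars are 1 SE, rows group the members by role and colours give the arm. The 9 calls of eIF1, eIF2 and eIF5 factors lie between 2.12 and 6.37 h. The 4 calls of the eIF3 subunits Eif3b and Eif3i lie between 8.97 and 13.5 h.

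Among the factors that select the start codon, Eif1ax, the X-linked gene of eIF1A (Entrez 66235), had the largest amplitude of all members. Its values in aged CR had a lowest of 6.48, a median of 7.25 and a highest of 8.11. In aged control they were 6.27, 7.35 and 8.15, in adult CR 6.48, 7.24 and 8.16, and in adult control 5.94, 7.12 and 8.10. The ranges of the 4 arms overlapped almost fully. In adult CR, Eif1ax averaged 7.73 ± 0.34 at T4 (SD, n = 6) and 7.02 ± 0.19 at T20 (SD, n = 5). In adult control it averaged 7.81 ± 0.16 at T8 and 6.53 ± 0.60 at T16 (SD, n = 4 each). Its adult control mean at T4 was 7.19 ± 0.12 (SD, n = 5), lower than the means at T0 and T8 on either side. The fitted peak in adult control, given next, lies nearest to T4 and so does not mark the highest measured time.
The fitted amplitude was 0.40 ± 0.10 (SE) in adult CR with a peak at 4.46 ± 0.97 h (limma, adjusted p = 0.0074), and 0.54 ± 0.12 in adult control with a peak at 4.83 ± 0.90 h (adjusted p = 0.0045). These amplitudes are 1.73-fold and 2.11-fold from trough to peak. In aged control the amplitude was 0.24 (adjusted p = 0.28) and in aged CR 0.021 (adjusted p = 0.99). The second, dimmer probe set of Eif1ax had no call in any arm, and with the mean of both probe sets the adult CR call was lost (adjusted p = 0.34), while that in adult control was kept. Eif1a, the autosomal copy on a probe set that can match several family members by its suffix, peaked at 4.05 ± 1.19 h in adult control with an amplitude of 0.29 ± 0.081 (limma, adjusted p = 0.028). This call was lost with time as 6 levels (adjusted p = 0.066) and with 3 of 22 single omissions (up to 0.087).

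Eif1ad, which encodes a protein with an eIF1A-like domain (Entrez 69860), had the smallest p of all member rhythms. In adult CR it averaged 6.39 ± 0.43 at T0 (SD, n = 5), 6.94 ± 0.46 at T4 (n = 6), 6.14 ± 0.51 at T8 (n = 5), 6.01 ± 0.30 at T12 (n = 6), 5.97 ± 0.14 at T16 (n = 5) and 5.67 ± 0.19 at T20 (n = 5). The T4 arrays stood highest and the T20 arrays lowest. The amplitude was 0.48 ± 0.090, a 1.95-fold swing, with a peak at 4.22 ± 0.72 h (limma, adjusted p = 0.00015). In the other arms the amplitude was 0.12 in aged CR, 0.13 in aged control and 0.082 in adult control, with adjusted p values of 0.67, 0.65 and 0.88. The difference between the adult CR and adult control rhythms did not pass (limma, adjusted p = 0.64).

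Of the remaining early factors, Eif5, the GTPase activator of eIF2, peaked at 3.67 ± 0.93 h in adult CR, with 10.2 ± 0.25 at T4 (SD, n = 6), 9.69 ± 0.25 at T16 (SD, n = 5) and an amplitude of 0.26 ± 0.062 (limma, adjusted p = 0.0041). Another of its 5 probe sets was called in the same arm with a peak at 4.3 h (limma, adjusted p = 0.0093), whereas the mean of its probe sets had an amplitude of 0.11 and no call (0.051). Eif2a, which can carry initiator tRNA in place of eIF2, peaked at 3.52 h in adult CR with the lowest amplitude of this group, 0.17 (limma, adjusted p = 0.035). Its call was lost with the Schwann score in the fit (adjusted p = 0.077), without the T20 arrays (0.067), with time as 6 levels (0.11) and with 7 of 32 single omissions. Eif2b2, a regulatory subunit of eIF2B, peaked at 4.24 h in adult CR with an amplitude of 0.36 (limma, adjusted p = 0.027). Its call was lost under 5 of 13 alternatives, with adjusted p values of 0.081 with the muscle stem cell score, 0.064 with the Schwann score, 0.057 without T20, 0.073 with time as 6 levels and 0.051 with that arm alone in the fit.
In aged control, Eif2s2, the beta subunit of eIF2, averaged 9.19 ± 0.12 at T0 and 8.53 ± 0.35 at T20 (SD, n = 4 each), and its 4 arrays at T0 all lay above the means of the other times. Its peak was at 2.12 ± 1.03 h with an amplitude of 0.23 ± 0.062 (limma, adjusted p = 0.025). The call was lost with the mean of its 2 probe sets (adjusted p = 0.47), with the muscle stem cell score in the fit (0.083) and with that arm alone in the fit (0.085). Eif1b, a close copy of Eif1, peaked at 6.37 h in aged control with an amplitude of 0.30 (limma, adjusted p = 0.019), a call that was lost without the T20 arrays (0.21). In aged CR, 1 gene of this group was called, Eif2d, which acts in ribosome recycling and reinitiation, with a peak at 3.05 h and an amplitude of 0.24 (limma, adjusted p = 0.0063). Its other 3 probe sets had no call there (adjusted p from 0.12 to 0.87), and with the mean of its 4 probe sets the call was lost (adjusted p = 0.79).

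Among the eIF3 subunits, the multi-protein platform that holds the small ribosomal subunit, Eif3b, a scaffold of the complex, was rhythmic in aged CR and in adult control. Its values had a lowest of 7.03, a median of 7.81 and a highest of 8.45 in aged CR, and 6.97, 7.80 and 8.33 in adult control. In aged CR it averaged 7.42 ± 0.27 at T0 (SD, n = 5) and 8.04 ± 0.32 at T16 (SD, n = 4). In adult control it averaged 7.41 ± 0.38 at T0 and 8.04 ± 0.15 at T8 (SD, n = 4 each). T0 was the low point in both arms, and also in aged control, at 7.43, whereas in adult CR the means at the 6 times lay between 7.62 and 7.93.
The amplitude was 0.31 ± 0.075 in aged CR with a peak at 13.5 ± 0.98 h (limma, adjusted p = 0.0074) and 0.32 ± 0.089 in adult control with a peak at 10.5 ± 1.00 h (limma, adjusted p = 0.029). In aged control the amplitude was 0.26 with a peak at 10.7 h and did not pass (adjusted p = 0.058). The adult control call was lost with the Schwann score in the fit (adjusted p = 0.11), with time as 6 levels (0.11) and with 3 of 22 single omissions (up to 0.12).
Eif3i, a ring-shaped subunit at the edge of the complex, peaked at 9.01 h in aged CR with an amplitude of 0.25 ± 0.074 (limma, adjusted p = 0.038) and at 8.97 h in adult CR with an amplitude of 0.22 ± 0.068 (limma, adjusted p = 0.041). Its T12 arrays averaged 9.53 ± 0.15 in aged CR (SD, n = 5) and 9.56 ± 0.18 in adult CR (SD, n = 6), the highest time in both. The second probe set was also called in aged CR (peak 10.1 h, adjusted p = 0.049) but not in adult CR (0.087). Leaving out the T20 arrays, the lowest time, ended both calls, with adjusted p values of 0.22 in aged CR and 0.32 in adult CR. The myofibre score in the fit also ended both, with adjusted p values of 0.058 in aged CR and 0.068 in adult CR.

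**Figure D3:**
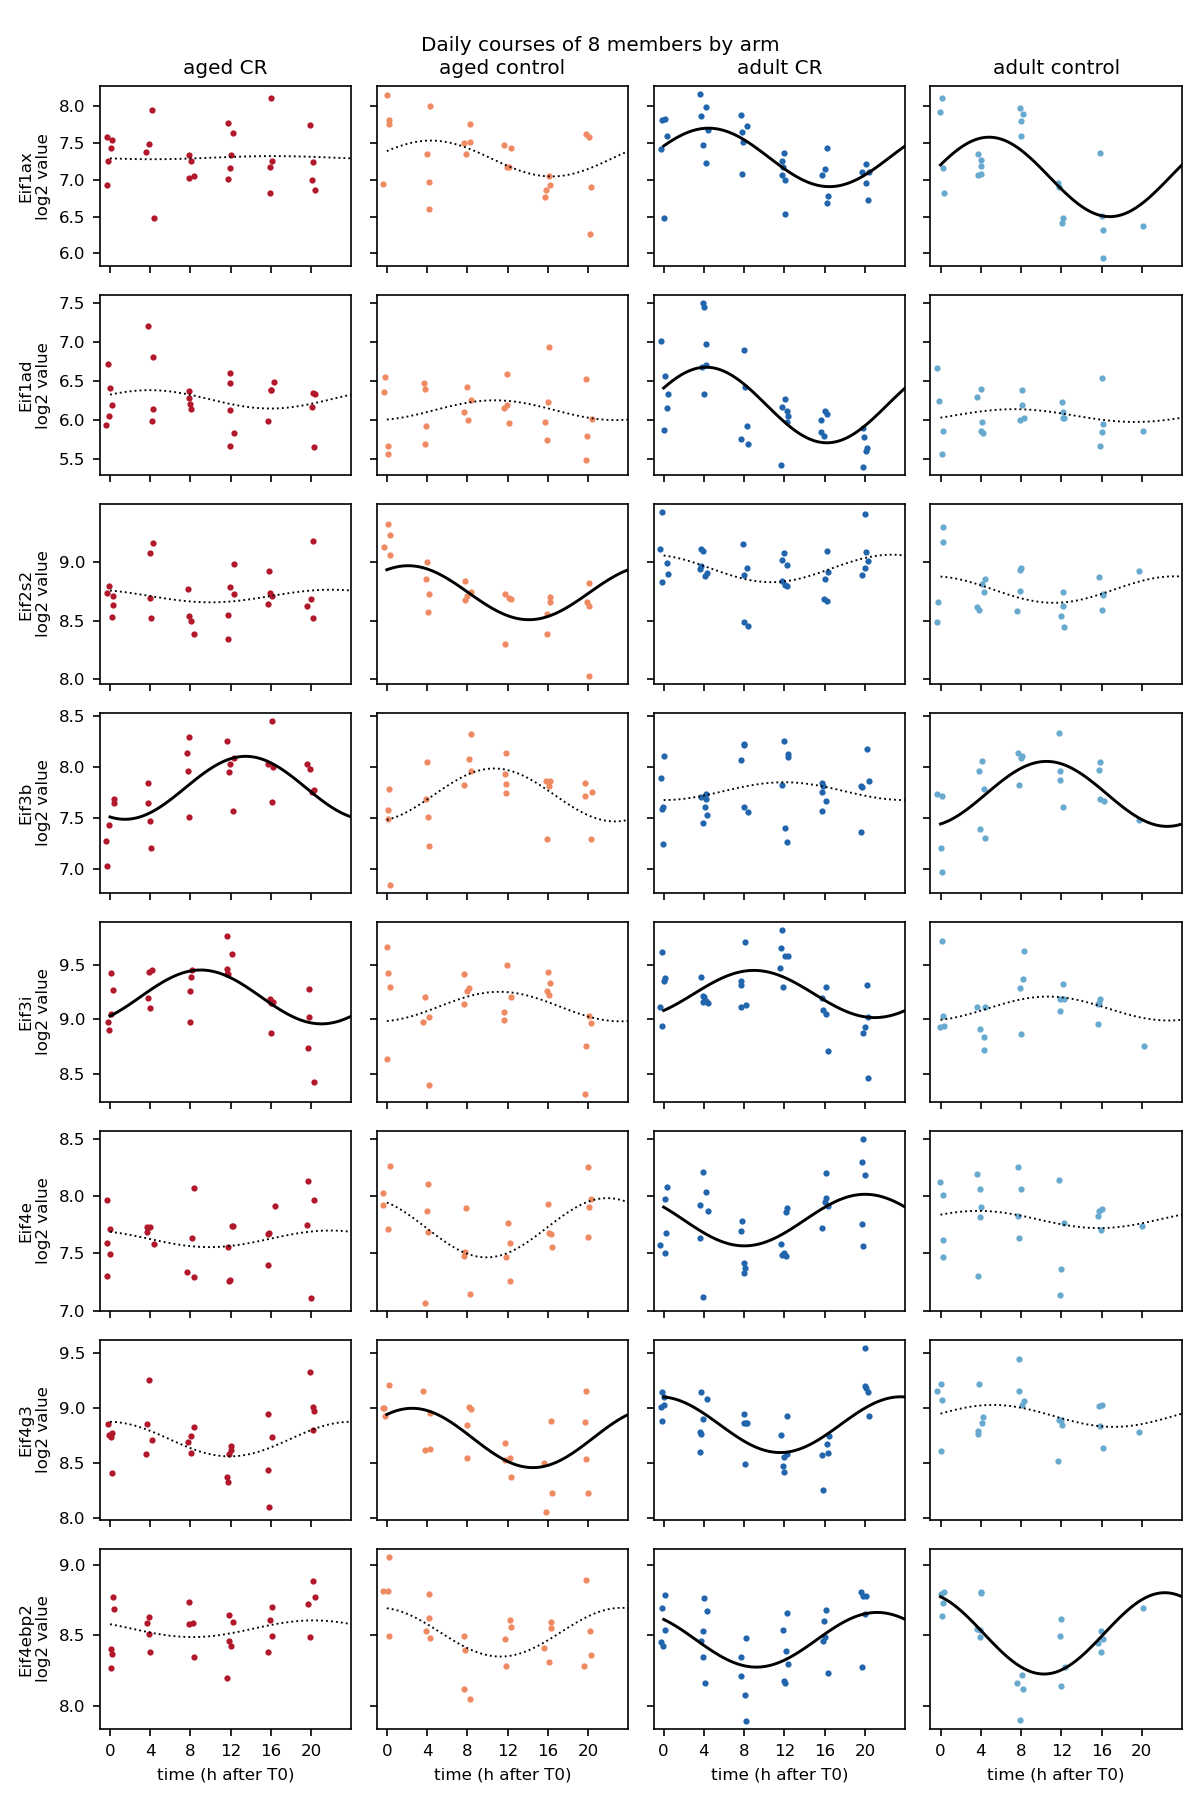
Points are arrays, with log2 value against time of day (h after T0), for 8 members in rows and the 4 arms in columns. Curves are the fitted 24 h cosines, solid where the rhythm was called and dotted where it was not. Eif1ax and Eif1ad peak in the first hours in adult CR, and Eif3b is lowest at T0 in aged CR and adult control.

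On the cap-binding side, Eif4e, the cap-binding protein, was called rhythmic in adult CR, with a peak at 20.02 ± 1.16 h and an amplitude of 0.23 ± 0.071 (limma, adjusted p = 0.04). Leaving out the T20 arrays ended this call (adjusted p = 0.24), as did time as 6 levels (0.11), the arm alone in the fit (0.051) and 12 of the 32 single omissions. The peak in aged control was 21.9 h, with an amplitude of 0.26 that did not pass (adjusted p = 0.059). Eif4g3, a scaffold of the eIF4G family, averaged 9.20 ± 0.22 at T20 and 8.56 ± 0.19 at T16 in adult CR (SD, n = 5 each), adjacent times of day that hold its highest and lowest means. Its peak was at 23.6 ± 0.91 h with an amplitude of 0.25 (limma, adjusted p = 0.0037).
In aged control it averaged 9.03 ± 0.12 at T0 and 8.41 ± 0.36 at T16 (SD, n = 4 each), with a peak at 2.51 ± 0.98 h and an amplitude of 0.27 (limma, adjusted p = 0.017). The aged control call was lost with the mean of its probe sets (amplitude 0.14, adjusted p = 0.065), with that arm alone in the fit (0.059) and with the muscle stem cell score (0.096). Eif4b, which stimulates the helicase eIF4A, had the smallest p in aged control, with a peak at 21.7 ± 0.85 h and an amplitude of 0.18 ± 0.039 (limma, adjusted p = 0.0043), which was lost with the mean of its probe sets (0.11). Its 4 arrays averaged 9.38 ± 0.090 at T0 and 9.06 ± 0.13 at T12. Eif4e3, a weaker cap-binding relative of Eif4e, had its high point near T12 in adult CR, with 9.09 ± 0.20 at T12 (SD, n = 6) and 8.56 ± 0.29 at T0 (SD, n = 5), a peak at 11.3 ± 0.80 h and an amplitude of 0.25 ± 0.051 (limma, adjusted p = 0.00078).

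Eif4ebp2, an inhibitor that competes with eIF4G for eIF4E, was rhythmic in both adult arms and highest around the end of the cycle. Its values had a lowest of 7.89, a median of 8.47 and a highest of 8.81 in adult CR and 7.90, 8.51 and 8.81 in adult control. In adult CR it averaged 8.66 ± 0.22 at T20 and 8.20 ± 0.23 at T8 (SD, n = 5 each), and in adult control 8.74 ± 0.075 at T0 and 8.10 ± 0.14 at T8 (SD, n = 4 each). T8 was the lowest time in both arms, and also in aged control, at 8.27. In aged CR the means at the 6 times lay between 8.46 and 8.72, with T8 at 8.56.
The amplitude was 0.19 ± 0.049 with a peak at 21.2 ± 0.94 h in adult CR (limma, adjusted p = 0.0075) and 0.29 ± 0.063 with a peak at 22.3 ± 0.76 h in adult control (limma, adjusted p = 0.003). In aged CR it was 0.059 (adjusted p = 0.7) and in aged control 0.17 (adjusted p = 0.073). With the mean of its 5 probe sets the adult CR amplitude was 0.041 and the call was lost (adjusted p = 0.62), whereas the adult control call was kept. Eif4ebp1, the other inhibitor on the array, had a peak at 22.1 h in adult CR with an amplitude of 0.22 that did not pass (adjusted p = 0.06).

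Of the 7 members grouped by symbol as elongation factors, 1 was called rhythmic in 1 arm. Per arm, 10.6% to 22.4% of all genes were called. Eef1a1, which delivers aminoacyl-tRNA to the ribosome and was the brightest member, lay between 12.11 and 12.35 in every array, with an SD within arm and time of 0.048. Eef2, which moves the ribosome to the next codon, lay between 11.68 and 12.01, and neither was called in any arm. The highest value of any probe set was 12.8, above all values of both. Over this group of 7 the largest amplitude was 0.14 in aged CR, 0.16 in aged control, 0.22 in adult CR and 0.16 in adult control. Except in aged control, these were amplitudes of Eef1e1, grouped here by its symbol alone, whose mean of 4.55 lay just above the filter value of 4.504. Without Eef1e1 the largest amplitude was 0.10 in aged CR, 0.078 in adult CR and 0.12 in adult control. Over all tested members the SD within arm and time had a median of 0.22, against 0.26 over all genes, whose levels are dimmer (median 8.18 for members and 6.30 for all genes).
That call was Eef1a2, the copy of Eef1a1 known from adult muscle and nerve, in aged control, with 5.00 ± 0.16 at T20 and 4.63 ± 0.18 at T12 (SD, n = 4 each), a peak at 23.9 ± 0.97 h and an amplitude of 0.16 ± 0.040 (limma, adjusted p = 0.016). This call was lost with the Schwann score in the fit (adjusted p = 0.099), without the T20 arrays (0.061) and with that arm alone in the fit (0.096). Its mean of 4.79 lay just above the filter value of 4.504. Across all arrays, its relation to the mean of 11 myofibre markers did not pass (Pearson's r = -0.0854, permutation p = 0.39, adjusted p = 0.44, Spearman's rho = -0.104, permutation p = 0.3, adjusted p = 0.44). Without the 2 arrays farthest from the median score r was -0.151. Within arms r was 0.174 in aged CR, -0.304 in aged control, -0.185 in adult CR and 0.0619 in adult control, and none of these 5 relations passed.
Eef1akmt1, a methyltransferase of elongation factor 1A, was rhythmic in both adult arms, with a peak at 21.9 ± 1.07 h and an amplitude of 0.35 in adult CR (limma, adjusted p = 0.02) and a peak at 18.6 ± 0.83 h and an amplitude of 0.53 in adult control (limma, adjusted p = 0.011). In adult control the single T20 array, at 7.29, was its highest value, and without that array the adjusted p was 0.05. The mean of its 2 probe sets had no call in either arm, and the adult CR call was also lost with the Schwann score in the fit (adjusted p = 0.051) and without the T20 arrays (0.053).

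None of the 3 tested eIF2 kinases was rhythmic in any arm, where 10.6% to 22.4% of all genes were called. With so few genes, the absence of a call says little about the kinases. Eif2ak1, the heme-regulated kinase, had arm means of 6.45 ± 0.39 in aged CR, 6.42 ± 0.32 in aged control, 6.48 ± 0.30 in adult CR and 6.47 ± 0.35 in adult control (SD). Eif2ak3, the endoplasmic reticulum kinase PERK, lay near the filter at 4.52 ± 0.21, 4.47 ± 0.20, 4.56 ± 0.24 and 4.51 ± 0.23, and Eif2ak4, the amino acid sensor GCN2, at 5.30 ± 0.22, 5.19 ± 0.18, 5.14 ± 0.24 and 5.13 ± 0.25 in the same order. Eif2ak2 averaged 4.34, 4.37, 4.24 and 4.29, below the filter, and was not tested. Eef2k, the kinase that inactivates Eef2, averaged 6.12 ± 0.32, 6.10 ± 0.31, 6.19 ± 0.31 and 6.01 ± 0.34. These arms overlap throughout. Eif2ak4 was 0.16 ± 0.059 (SE) higher in aged CR than in adult CR, without passing (limma, adjusted p = 0.16).

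Whether rhythms differed between arms was tested on the difference of the fitted curves. For age within CR, 0 members passed, against 0.00844% of all genes, with Eif6 nearest (adjusted p = 0.32). For age within control, 0 members passed, against 0% of all genes. For CR within aged mice, 0 members passed, against 0.388%, with Eef1a2 nearest (adjusted p = 0.078), and for CR in adult mice 0 members passed, against 0.0253%, with Eif1ad nearest. At an unadjusted p below 0.05 there were 6 members (12.2%, against 9.86% of all genes), 3 (6.12%, against 4.04%), 4 (8.16%, against 13.8%) and 6 (12.2%, against 6.45%) in that order. For no member was a rhythm called in one arm shown to differ from that in another.

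The second question is whether the mean over the day differs with age or diet. Aged CR was called lower than adult CR in 2 of 49 members, and none was called higher. Of all genes, 1.94% were called in this comparison and 0.456% were called lower in aged CR. At an unadjusted p below 0.05 (limma) there were 8 members (16.3%, against 14.3% of all genes), 3 higher and 5 lower in aged CR. Eif2s2 (Entrez 67204) had values with a lowest of 8.35, a median of 8.70 and a highest of 9.18 in aged CR, and 8.45, 8.95 and 9.43 in adult CR. The ranges overlap, with the aged CR arrays placed lower.
Its day mean was 8.71 in aged CR and 8.95 in adult CR, a difference of -0.24 ± 0.057 (SE), or 1.18-fold lower, and it was lower at 6 of 6 times (limma, adjusted p = 0.012). The dimmer second probe set of Eif2s2 differed by -0.11 (adjusted p = 0.6). Without the T20 arrays the adjusted p was 0.05. Eif2s2 averaged 8.74 ± 0.29 in aged control and 8.76 ± 0.21 in adult control (SD), and the difference was -0.027 ± 0.065 (limma, adjusted p = 0.94). Adult CR thus had the highest mean of the arms, and the age by diet term for Eif2s2 was -0.21 (adjusted p = 0.56).
Eef1g (Entrez 67160), a subunit of the complex that recharges Eef1a with GTP, had values with a lowest of 9.31, a median of 9.83 and a highest of 10.1 in aged CR, and 9.60, 9.91 and 10.3 in adult CR. The day means were 9.78 in aged CR and 9.95 in adult CR, a difference of -0.17 ± 0.049, or 1.13-fold lower, at 6 of 6 times (limma, adjusted p = 0.036). This call was lost under 4 of 13 alternatives, with limma adjusted p values of up to 0.18. These were the Schwann score or the muscle stem cell score in the fit, the mean of its probe sets and omission of the T20 arrays. It was also lost with 10 of the 58 arrays left out singly, where the adjusted p reached 0.07. Its second probe set differed by -0.17 in the same direction (adjusted p = 0.36).

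**Figure D4:**
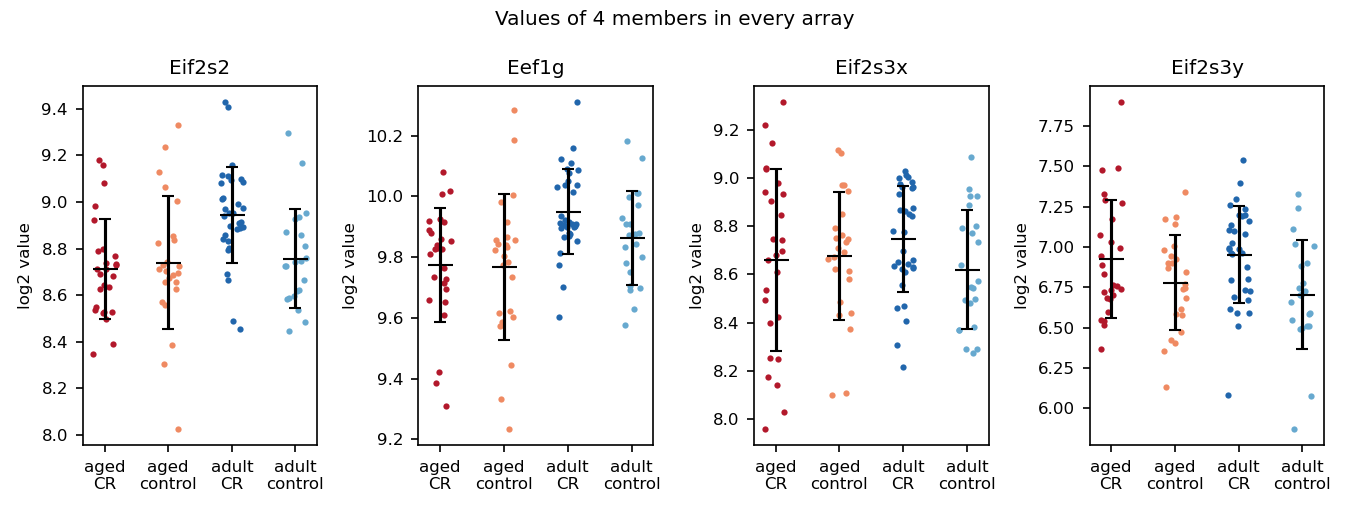
Points are the log2 values of Eif2s2, Eef1g, Eif2s3x and Eif2s3y in every array, by arm, and black marks are the arm mean with bars of 1 SD. Aged CR lies below adult CR for Eif2s2 (8.71 and 8.94) and Eef1g (9.78 and 9.95), with overlapping ranges.

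The gamma subunit of eIF2 is encoded by Eif2s3x on the X and Eif2s3y on the Y chromosome, close copies whose probe sets may share signal. Eif2s3x averaged 8.66 ± 0.38 in aged CR, 8.68 ± 0.26 in aged control, 8.75 ± 0.22 in adult CR and 8.62 ± 0.25 in adult control (SD). Eif2s3y averaged 6.92 ± 0.36, 6.78 ± 0.30, 6.95 ± 0.30 and 6.70 ± 0.34 in the same order and was never below 5.87. In adult mice Eif2s3y was 0.25 ± 0.088 above control under CR, without passing (limma, adjusted p = 0.16). For age within control, 0 members passed in limma, against 0.422% of all genes, 2 had an unadjusted p below 0.05, and Eif4g3 was nearest, with 8.72 in aged control and 8.93 in adult control (-0.20 ± 0.072, limma, adjusted p = 0.23).

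Under CR, 0 members passed in aged mice, against 2.29% of all genes, and 0 in adult mice, against 1.05%. In the age by diet test of the day means, 0 members passed, against 0% of all genes, and 1 member had an unadjusted p below 0.05 (limma). All 10 tested eIF3 subunits lay above 0 in both diet comparisons, which share no arrays. The subunits were read from the same arrays and are no independent replicates, and the sign count was not tested. The 2 members of the eIF5A and eIF6 group lay below 0 in both comparisons, and the 2 eIF4E inhibitors did so in adult mice. For eIF3, the differences between CR and control in aged mice ran between 0.018 and 0.13 with a median of 0.071. In adult mice they ran between 0.027 and 0.17 with a median of 0.071. Over all genes tested the medians were -0.0016 and 0.0077, and 49.2% and 53.1% of genes lay above 0, against 34 of 49 members (69.4%) in aged mice and 35 of 49 (71.4%) in adult mice. Over the alternatives, the count of eIF3 subunits above 0 went down to 8 of 10 in aged mice, without the T20 arrays and with quantile normalization added. In adult mice it went down to 9 of 10, without T20 and with time as 6 levels. For all members in aged mice, the count went down to 28 of 49 (57.1%, against 48.2% of all genes) without T20. With quantile normalization it was 29 of 49 (59.2%, against 47.9%). In adult mice the lowest share of members was 69.4%, against 52.3%, with quantile normalization.

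The subunit nearest to passing was Eif3h, a regulatory subunit (Entrez 68135). In aged mice it had a lowest of 9.28, a median of 9.65 and a highest of 9.93 under CR and 8.91, 9.56 and 9.78 under control. In adult mice it had 9.51, 9.72 and 10.1 under CR and 9.11, 9.61 and 9.73 under control. The CR median lay above the control median at both ages.
The difference was 0.11 ± 0.048 in aged mice (limma, adjusted p = 0.22) and 0.17 ± 0.048 in adult mice (limma, adjusted p = 0.055), at 6 of 6 times at each age. The adult difference passed under 9 of 13 alternatives, with adjusted p values between 0.016 and 0.063. Eif3f, the subunit whose E-box is shown above, differed by 0.073 ± 0.034 in aged mice and 0.10 ± 0.034 in adult mice (limma, adjusted p = 0.27 and 0.12). Eef1b2, another subunit that recharges Eef1a, differed by 0.12 ± 0.060 and 0.17 ± 0.059 (limma, adjusted p = 0.29 and 0.16).
In adult mice 8 members (16.3%, against 13.1% of all genes) had an unadjusted p below 0.05, all 8 higher under CR, among them Eif2s2 with 8.95 under CR and 8.76 under control (0.18 ± 0.061, limma, adjusted p = 0.13). In aged mice 5 members (10.2%, against 15.4% of all genes) had one, 3 higher and 2 lower. The lower ones were Eef1aknmt, a methyltransferase of elongation factor 1A, with 4.69 under CR and 4.84 under control (-0.14 ± 0.051, limma, adjusted p = 0.11), and Eif4ebp1, with 7.92 and 8.10 (-0.18 ± 0.085, limma, adjusted p = 0.28).

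**Figure D5:**
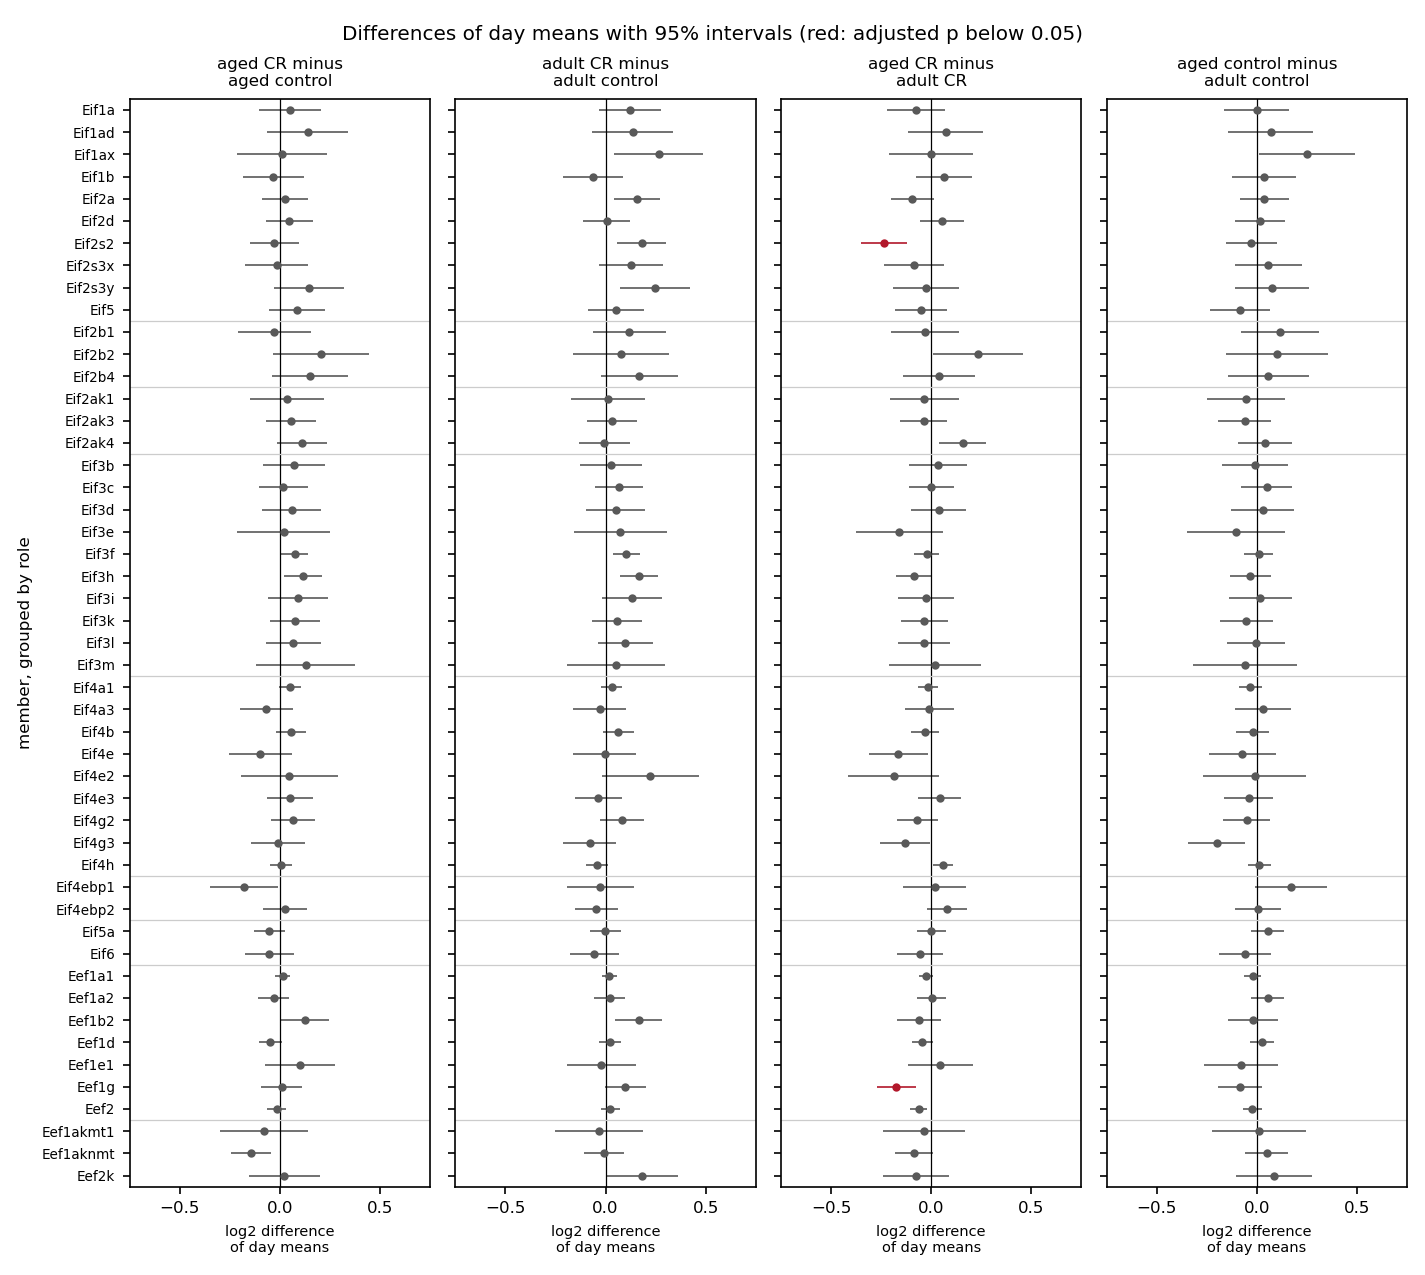
Points are the differences of day means on the log2 scale for every tested member, grouped by role, with 95% intervals, in the 4 comparisons. Red marks the 2 members that passed, Eif2s2 and Eef1g in aged CR against adult CR. The 10 tested eIF3 subunits lie to the right of 0 in both diet comparisons.

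The 95% interval lay within 1.5-fold in either direction for all 49 members in each of the 4 comparisons. It lay within 1.2-fold for 42 members for age within CR, 39 for age within control, 40 for CR in aged mice and 32 for CR in adult mice. The brightest factors were the most tightly bounded. Eef1a1 reached 12.35 and Eef2 12.01, against 12.8 for the highest value of any probe set. Whether their probe sets could show a change at such levels was not tested. Eef1a1 averaged 12.2 ± 0.053 in aged CR, 12.2 ± 0.060 in aged control, 12.3 ± 0.059 in adult CR and 12.2 ± 0.054 in adult control (SD), and its difference for age within control was -0.020, with an interval of -0.062 to 0.022. Eef2 averaged 11.8 ± 0.069, 11.8 ± 0.068, 11.9 ± 0.070 and 11.9 ± 0.057, Eif4a1, the helicase of the cap complex, 11.2 ± 0.073, 11.2 ± 0.10, 11.3 ± 0.081 and 11.2 ± 0.094, and Eif5a, which relieves stalled ribosomes, 10.9 ± 0.11, 10.99 ± 0.14, 10.9 ± 0.13 and 10.9 ± 0.15 in the same order. Eef1d, a subunit of the exchange complex for Eef1a, averaged 11.4 ± 0.087, 11.4 ± 0.10, 11.4 ± 0.093 and 11.4 ± 0.064. Eif4h, a helper of the helicase, averaged 10.98 ± 0.090, 10.97 ± 0.081, 10.92 ± 0.082 and 10.96 ± 0.092, and Eif6, which keeps the large ribosomal subunit apart from the small one, averaged 8.13 ± 0.20, 8.18 ± 0.27, 8.19 ± 0.23 and 8.23 ± 0.18. Of the 49 members, 25 lay above 0 for age within control (51%, against 54.3% of all genes) and 16 for age within CR (32.7%, against 49.7%).

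Of 42 listed genes that control or surround these factors, 34 were tested. Of the 34, 8 were rhythmic in aged CR, against 16.5% of all genes, 4 in aged control, against 10.8%, 6 in adult CR, against 22.4%, and 3 in adult control, against 10.6%. Ddit3, the stress response factor CHOP that acts downstream of eIF2 phosphorylation, peaked at 14.5 ± 0.83 h in aged CR, 14.3 ± 0.78 h in adult CR and 14.3 ± 1.05 h in adult control. Rheb, the activator of mTORC1, peaked at 7.35 h in aged CR, 7.73 h in aged control and 4.55 h in adult CR, with amplitudes of 0.47, 0.38 and 0.35. Mtor itself was called in aged control (peak 22.1 h, amplitude 0.28) and in adult CR (peak 0.19 h, amplitude 0.24). Ddit4, an mTORC1 inhibitor induced by stress, had the largest amplitude, 0.57 ± 0.10 with a peak at 12.5 h in adult CR (limma, adjusted p = 8.5e-05).
Rps6kb2, an S6 kinase, was the only one of these 34 genes whose rhythm differed between arms. It peaked at 3.55 ± 0.85 h in aged CR and 20.7 ± 0.84 h in aged control (limma, adjusted p = 0.019). In level, Rptor, the scaffold of mTORC1, was higher in aged CR than in aged control by 0.45 ± 0.11, or 1.37-fold (limma, adjusted p = 0.011), and Mknk2, a kinase of eIF4E, by 0.16 ± 0.042 (limma, adjusted p = 0.02). Paip2, which restrains the poly(A)-binding protein, was lower in aged CR than in adult CR by -0.19 ± 0.047 (limma, adjusted p = 0.019). None of the 34 passed for age within control or CR in adult mice.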

How the data were processed

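The deposited values were made with RMA, as named in the submitters' processing notes without a version. The log2 base of the deposited values is inferred from their range (1.19 to 12.8), since no header states it. Per the labels' protocols, 25 ng of RNA was amplified in 17 cycles and 8 µg of cDNA was labelled. The precision of each value depends on how many arrays stand behind it. P-values measure the spread between arrays.

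Of 45141 probe sets, 28898 had 1 symbol, 551 several and 15692 no listed gene. A gene was tested if its probe set reached the 40th percentile of mean level. In limma 3.58.1 (R 4.3.3), 1 model over 11853 genes gave each arm its own day mean and 24 h cosine and sine, with every array included. The code was tested on simulated data. Members described in depth were up to 8 of smallest adjusted p that passed per comparison, or the nearest, the 2 brightest per role, close copies and regulators, and up to 4 passing pathway genes per comparison. The members and lists were chosen with earlier results of these data known. Alternatives were the 60th percentile filter or none, the mean of probe sets, fits of the compared arms alone, time as 6 levels, omission of T20, array weights, quantile normalization, a residual component, a replicate block, each array left out, and, added after seeing the data, 3 marker scores as covariates. Promoter windows are from RefSeq, without those on chr18.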

Additional observations from a re-analysis of the deposited data

Results flagged for a closer look

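In 9 of the 163 groups of 4 to 6 arrays examined, taken from members and arms with a called result, a single array stood apart from the others of its arm and time by Dixon's criterion, which chance alone meets in about 1 of 20 groups. In aged CR at T16, an Eif3i value of 8.87 lay below the nearest at 9.15. In aged control, a T4 value of Eif1b of 6.91 lay below the nearest at 7.32, and a T12 value of Eif2s2 of 8.30 lay below the nearest at 8.69. In adult CR, low values were 5.43 for Eif1ad at T12 (nearest 5.98), 6.62 for Eif2b2 at T8 (nearest 7.501) and 8.49 for Eif4g3 at T8 (nearest 8.86), and high values were 7.27 for Eif2a at T12 (nearest 7.03) and 9.39 for Eif3i at T4 (nearest 9.21). In adult control at T8, an Eif3b value of 7.82 lay below the nearest at 8.09. Among these arrays, leaving out the aged control T12 array of Eif2s2 was one of 3 omissions that ended that rhythm call, with adjusted p values of up to 0.074.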

How the results depend on the processing

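No result for a named member reversed. Over the alternatives other than single omissions, 386 values of named members kept their side of the threshold, 42 lost a call and 9 gained one. The rhythms of Eif1ax and Eif4ebp2 in adult control, Eif1ad, Eif4e3 and Eif4g3 in adult CR and Eif3b in aged CR kept their calls under all 13. Eif1ad and Eif3b have 1 probe set each, so taking the mean of probe sets left their values unchanged and does not test those calls. The count of rhythmic members was 7 (14.3%, against 16.9% of all genes) in adult CR without the T20 arrays. There the other alternatives gave 8 to 14, against 18.3% to 26.5% of all genes. In aged CR it was 7 (14.3%, against 21%) with time as 6 levels. In aged control it was 2 (against 11.6% of all genes) with the mean of probe sets, 2 (against 7.61%) with that arm alone in the fit and 9 (against 12.8%) with time as 6 levels. The 2 members lower in aged CR than in adult CR became 1 with the mean of probe sets (against 2.26% of all genes called). They became 1 with the muscle stem cell score (against 1.89%), 1 with the Schwann score (against 0.827%) and 0 without T20 (against 0.996%). For CR in adult mice the count was 2 with the mean of probe sets (against 1.26% of all genes), without T20 (against 1.09%) and with the residual component (against 1.55%). It was 1 with the 60th percentile filter, the compared arms alone, array weights, quantile normalization and the muscle stem cell score, against 0.844% to 1.77% of all genes. The cause of these shifts was not tested, except that omission of T20 leaves fewer arrays. Replicate numbers did not pair the arrays (10 of 45 pairs with a correlation above 0.1, median 0.036). With the replicate block the count for CR in adult mice was 1, against 1.37% of all genes. With single arrays left out, rhythmic members numbered 2 to 4 in aged CR, 4 to 8 in aged control, 9 to 12 in adult CR and 4 to 6 in adult control. Level calls numbered 1 to 2 for age within CR and 0 to 1 for CR in adult mice, and stayed at 0 in the other comparisons. For single omissions the share of all genes was not taken. The Eef1g call was lost on leaving out any of 7 aged CR or 3 adult CR arrays. The Eif3i calls were lost with 8 of 26 aged CR and 12 of 32 adult CR omissions.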
